A study of Mus musculus with 4 samples.

Results

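The regions described here were called accessible in both libraries of Ezh2 knockout (KO) macrophages and in neither wild-type (WT) library. The deposited peak lists of 4 libraries were merged wherever peaks overlapped by at least 1 bp, and a library called a union region when 1 of its peaks overlapped it. By this rule 1350 of 91858 union regions were KO-only, which is 1.47% of all regions. The members were chosen by the presence of peaks in the lists, so this number is a description and carries no test. The mirror set, called in both WT libraries and in neither KO library, held 1867 regions (2.03%). Regions called in exactly 1 WT and 1 KO library, named crossing regions here, numbered 5694 (6.2%). They served as the comparison, because each genotype contributes 1 library to them. The 5694 pool 4 library pairs of 959, 1409, 1276 and 2050 regions, whereas the 1350 KO-only regions come from a single pair. The KO-only count thus lay within the range of the crossing pairs.

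All 4 libraries were ATAC-seq of bone marrow-derived macrophages (BMDMs) kept for 24 hours in conditioned medium of Hepa1-6 cells, a mouse hepatoma line, so the exposure is shared by both genotypes. KO cells came from Ezh2fl/fl;LysM-Cre+/- mice and WT cells from littermate controls, whose alleles the labels do not give. In these mice Cre is expressed from the Lyz2 (LysM) locus in cells of the myeloid lineage, and the labels give neither the share of cells with a deleted allele nor the age of the animals. Marrow cells of both genotypes had first grown for 7 to 10 days in medium that contained L929 supernatant, which supplies macrophage colony-stimulating factor. There were 2 libraries per genotype, each with its own peak list. Whether the replicates were separate animals or separate cultures is not stated in the labels.

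Ezh2 is the catalytic subunit of Polycomb repressive complex 2 (PRC2), which methylates lysine 27 of histone H3. Genes that carry this mark are kept silent, among them many regulators of embryonic development, and their promoters are often rich in CG dinucleotides. ATAC-seq maps open chromatin with a transposase that inserts adapters where DNA is not covered by nucleosomes, and a called peak marks such a stretch.

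Only 30 KO-only regions overlapped a promoter window, taken here as the bases from 250 before to 50 after an annotated start site in RefSeq (GRCm38.p6, the assembly of mm10). The windows of 5 of these genes are shown as examples of placement among the 30. They are S1pr5, a receptor for sphingosine-1-phosphate, with the strongest peak of the 30; Scn8a, a voltage-gated sodium channel subunit, with the whole window inside the region; Tekt1, a tektin of cilia and flagella; Aif1l, an actin-binding protein; and Wnt5b, a secreted Wnt ligand, with a region that stops short of the start site. Each window is written 5′ to 3′ along the gene, and capitals mark the bases inside the KO-only region.
S1pr5 (chr9:21248394-21248693, minus strand): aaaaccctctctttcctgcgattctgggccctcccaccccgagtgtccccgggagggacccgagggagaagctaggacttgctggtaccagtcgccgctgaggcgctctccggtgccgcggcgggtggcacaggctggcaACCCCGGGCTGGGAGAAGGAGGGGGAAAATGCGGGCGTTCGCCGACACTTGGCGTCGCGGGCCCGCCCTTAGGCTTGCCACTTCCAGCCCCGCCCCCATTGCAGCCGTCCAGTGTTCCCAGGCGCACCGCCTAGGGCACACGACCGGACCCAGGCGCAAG
Scn8a (chr15:100870395-100870694, plus strand): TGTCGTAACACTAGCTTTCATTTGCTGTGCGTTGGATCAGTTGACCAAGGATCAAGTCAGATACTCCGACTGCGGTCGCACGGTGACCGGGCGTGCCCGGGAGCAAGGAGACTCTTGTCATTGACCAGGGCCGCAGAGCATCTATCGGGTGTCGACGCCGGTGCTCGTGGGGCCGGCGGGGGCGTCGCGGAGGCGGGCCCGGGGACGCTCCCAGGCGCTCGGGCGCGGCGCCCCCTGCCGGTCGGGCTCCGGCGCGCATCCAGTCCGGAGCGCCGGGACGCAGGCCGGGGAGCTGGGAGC
Tekt1 (chr11:72361833-72362132, minus strand): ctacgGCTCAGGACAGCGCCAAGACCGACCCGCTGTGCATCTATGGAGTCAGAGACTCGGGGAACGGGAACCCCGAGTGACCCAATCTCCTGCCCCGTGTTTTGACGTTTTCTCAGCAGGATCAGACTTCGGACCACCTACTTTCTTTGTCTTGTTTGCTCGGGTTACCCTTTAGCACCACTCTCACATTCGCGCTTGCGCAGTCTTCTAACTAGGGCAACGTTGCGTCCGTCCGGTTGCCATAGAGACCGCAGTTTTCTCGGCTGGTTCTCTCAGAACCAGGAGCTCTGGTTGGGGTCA
Aif1l (chr2:31950053-31950352, plus strand): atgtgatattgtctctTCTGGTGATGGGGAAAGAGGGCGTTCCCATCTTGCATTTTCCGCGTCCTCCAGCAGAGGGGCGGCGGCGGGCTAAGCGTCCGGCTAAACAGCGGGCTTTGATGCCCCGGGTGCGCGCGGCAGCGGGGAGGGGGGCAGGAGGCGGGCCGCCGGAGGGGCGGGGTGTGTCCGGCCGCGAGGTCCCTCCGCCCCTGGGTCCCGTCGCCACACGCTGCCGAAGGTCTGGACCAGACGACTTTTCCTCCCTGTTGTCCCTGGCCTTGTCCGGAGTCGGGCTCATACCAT
Wnt5b (chr6:119544298-119544597, minus strand): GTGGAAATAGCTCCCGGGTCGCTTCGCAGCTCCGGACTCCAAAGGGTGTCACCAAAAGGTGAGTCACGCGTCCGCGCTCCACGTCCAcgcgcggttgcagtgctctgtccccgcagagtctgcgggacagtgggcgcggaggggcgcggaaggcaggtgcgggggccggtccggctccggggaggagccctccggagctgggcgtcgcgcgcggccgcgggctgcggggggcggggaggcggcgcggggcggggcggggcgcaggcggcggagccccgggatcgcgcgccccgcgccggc
The region covered 160 of the 300 bases at S1pr5, all 300 at Scn8a, 295 at Tekt1, 284 at Aif1l and 87 at Wnt5b. CG dinucleotides numbered 27, 38, 20, 29 and 47 in the same order. All 5 lay above the median of 19.5 over the 30 windows, which ran from 2 to 47, so no window poor in CG is shown.

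The Ezh2 locus was looked at before the members, since it is the targeted gene. Ezh2 lies on the minus strand of chromosome 6 with its start site at position 47595030. The region over its promoter was called in every library, with fold enrichments of 5.52 and 5.15 in WT replicates 1 and 2 and of 6.24 and 5.62 in KO replicates 1 and 2. The fold enrichment is the authors' value for a peak relative to its local background. Near the other end of the gene, 2221 bp from it, a region at chr6:47532495-47532897 was called in every library too, with values of 5.66 and 7.10 in WT and of 3.61 and 3.42 in KO. Its peaks were 403 and 372 bp wide in WT and 106 and 182 bp wide in KO. No KO-only region lay in or within 50 kb of Ezh2. The floxed exons were not placed here, so these peaks do not check the genotype labels.

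The 4 lists held between 67055 and 72887 peaks, and 53062 regions were called in all 4. Of 17 macrophage marker genes, all 17 had a region within 1 kb of an end that every library called. Over all protein-coding genes this share was 54.6%. Files gave no read counts or coverage, so the depth is unknown and a peak missing from a WT list may lie just under the threshold there. No region was tested, since a comparison of 2 libraries with 2 cannot give a two-sided exact p under 0.333.

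Most KO-only regions rested on weak and narrow peaks. The median fold enrichment of the member peaks was 3.32 in KO replicate 1 and 3.20 in KO replicate 2, against 4.55 and 4.41 over all peaks of those lists. These medians lay at the 16th and 16.9th percentile of fold within each list. The median width of a KO-only region was 233 bp, close to the 231 bp of crossing regions, and 248 (18.4%) were under 150 bp. The shared stretch was often short: the bases inside a peak of both KO libraries made up a median of 62.2% of a region's width, with quartiles of 41.7% and 78.1%. The nearest WT peak was a median of 4905 bp away, but it lay within 1 kb of 176 regions and within 100 bp of 11.

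Strength of a region, defined as the smaller of its within-list fold percentiles in both KO libraries, had a median of 11.7. This was below the medians of the 4 library pairs of crossing regions (12.39 to 13.73) and of WT-only regions (14.98). Strength was under 10 for 584 KO-only regions (43.3%) and at least 50 for 35. The share with a strength of at least 50 was 2.59% of KO-only regions, against 2.24% to 2.41% in the 4 library pairs of crossing regions and 4.39% of WT-only regions. Of the 35 strong regions, 29 were assigned to a gene by lying within 50 kb of its end, and 19 were under 150 bp wide. The plot of percentiles in one KO list against the other shows the bulk of members in the lower left corner of both.

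**Figure D1:**
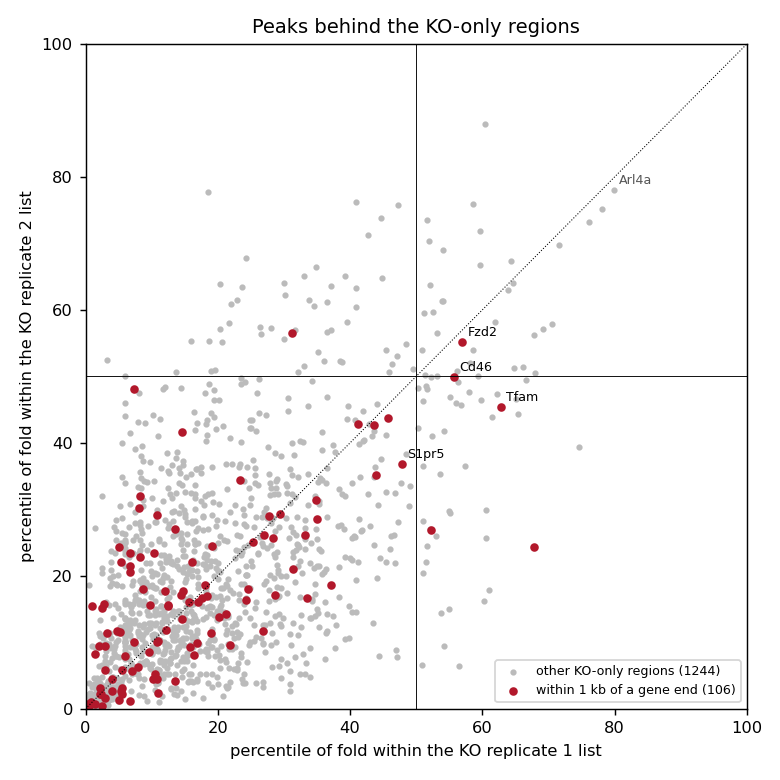
Each point is a KO-only region, placed by the percentile of its fold enrichment within the KO replicate 1 list (x axis) and the KO replicate 2 list (y axis). Red points are the 106 regions within 1 kb of a gene end, lines mark the 50th percentile, and the dotted line marks equal percentiles; Fzd2 is the red point past 50 in both lists.

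The 12 strongest regions lay away from gene ends. The strongest, on chromosome 12, had folds of 6.22 and 5.90 in KO replicates 1 and 2, was 119 bp wide and lay 367583 bp from its nearest gene, Arl4a, which encodes a small GTPase. The next was inside Polr3b, a large subunit of RNA polymerase III, with folds of 6.09 and 5.70 at 9028 bp from the gene's end. A region inside Serpinb1c, a serpin, had folds of 5.94 and 5.58. In these 3 cases KO replicates 1 and 2 gave like values and the region was under 150 bp wide.

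A region inside Akap6, which anchors protein kinase A, followed with folds of 5.64 and 5.37. A region 36688 bp from Crim1, a transmembrane protein that binds bone morphogenetic proteins, had 5.22 and 5.24. Inside Zfr, a zinc finger RNA-binding protein, the folds were 5.23 and 5.06. The Rbm20 region, inside a gene for a splicing factor of heart muscle, stood out for its width of 647 bp and for unequal folds of 5.01 and 6.76. The others of the 12 were near or inside the formin gene Fmnl2, Nemf, a factor of ribosome quality control, the phosphodiesterase gene Pde11a, the Golgi glycoprotein gene Glg1, and Slc26a8, an anion transporter of the testis. Their folds ran from 4.77 to 5.76.

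By position, KO-only regions were placed much as crossing regions were. Inside the span of a protein-coding gene lay 753 KO-only regions (55.8%, exact Clopper-Pearson 95% interval 53.1% to 58.4%), against 53.2% to 55.1% in the 4 crossing pairs. All intervals here cover counting error only. Within 50 kb of a gene end lay 993 (73.6%), against 71.5% to 76.0%, and these are said to be assigned to that gene. Of the 357 others, 167 lay deep inside a long gene and 190 outside genes. The median distance to a gene end was 20145.5 bp for KO-only and 18721.5 bp for crossing regions.

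Gene ends, meaning positions within 1 kb of either annotated end of a gene, held 106 KO-only regions. This share of 7.85% (interval 6.47% to 9.42%) was higher than in each crossing pair (5.96% to 6.97%) and than the 6.21% of WT-only regions. The difference from all crossing regions was 1.21 percentage points with an interval of -0.36 to 2.79, which includes 0. Leaving out KO replicate 1 turned it to -0.50, and leaving out KO replicate 2 brought it to 0.014. In those settings KO-only means called in the remaining KO library and in neither WT library. The sets then held 7145 and 5377 regions, so they differ in kind from the members described here. Ends without an annotated start site within 1 kb took 4.30% of KO-only regions, against 3.23% to 3.66% in the crossing pairs. Near a start site the share was 4.59%, inside the crossing range of 3.48% to 4.94%. Start sites were known for 17492 of 21900 genes only, so ends without one include the starts of some genes, such as Fzd2. Among regions called in all 4 libraries, 22.3% lay at a gene end.

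**Figure D2:**
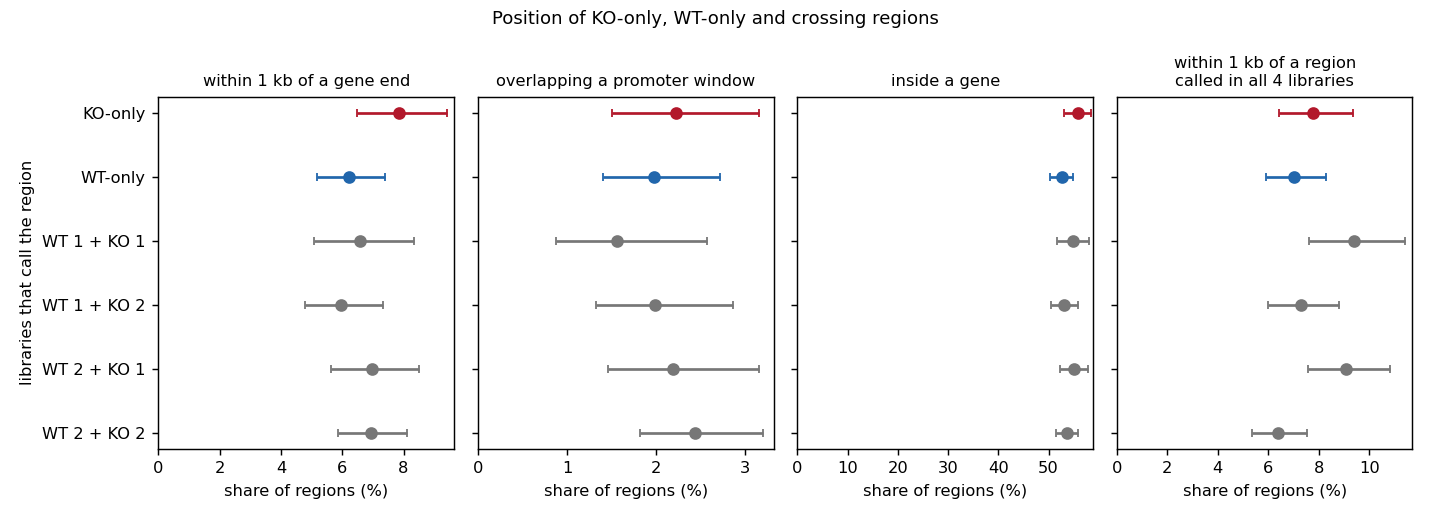
Share of regions (x axes, %) with each placement, for KO-only regions (red), WT-only regions (blue) and the 4 pairs of crossing regions (grey); bars are exact 95% intervals for counting error. The KO-only share lies above all 4 pairs at gene ends (7.85%) and inside genes (55.8%) and among them in the other panels, and every KO-only bar overlaps a crossing bar.

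The strongest region at a gene end was at Fzd2, a frizzled receptor for Wnt ligands. It spanned chr11:102603692-102604495, 804 bp over the gene's lower-coordinate end, with folds of 4.85 and 4.63. Fzd2 is on the plus strand, so this is its 5′ end, but the gene had no promoter window. A narrower KO-only region of 111 bp began 793 bp inside the gene, with folds of 3.21 and 3.16. No region of Fzd2 was called in all 4 libraries. The closest WT peak was 3571 bp from the wide region and was called in WT replicate 2 alone.

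S1pr5 likewise held 2 KO-only regions. The one over its start site, chr9:21248386-21248553, had folds of 4.46 and 3.89, and the other, 3330 bp from the start site, had 2.81 and 2.76. WT peaks lay no closer than 6736 bp and 2999 bp to them.

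**Figure D3:**
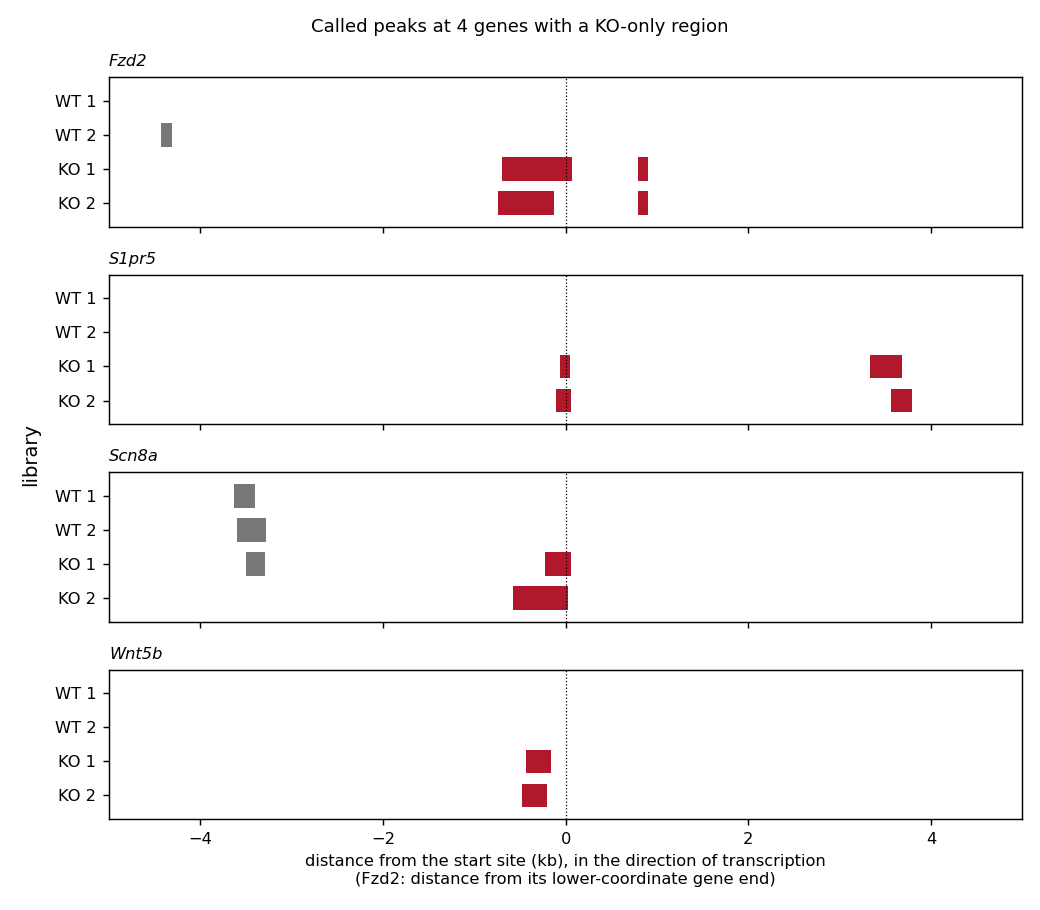
Peaks called in each library (rows) around Fzd2, S1pr5, Scn8a and Wnt5b, by distance in kb from the start site in the direction of transcription (for Fzd2, from its lower-coordinate end); red bars are peaks of KO-only regions, grey bars other peaks. Red bars stand in the KO rows only, as the rule requires. Each gene has some within 1 kb of 0, S1pr5 has others more than 3 kb downstream, and the grey bars at Fzd2 and Scn8a lie more than 3 kb upstream.

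At Cd46, a regulator of complement, the region chr1:195038091-195038241 lay 730 bp beyond the gene's lower end with folds of 4.79 and 4.41. The start site of Cd46 was 54007 bp away. The same region lay 457 bp from the hairpin of Mir29c and 971 bp from that of Mir29b-2, microRNAs that are known to repress collagen and other matrix genes. Their 3p arms share a seed, shown in capitals (bases 2 to 8) in the RefSeq mature sequences.
mmu-miR-29b-3p (chr1:195037091-195037113, plus strand): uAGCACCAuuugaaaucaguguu
mmu-miR-29c-3p (chr1:195037600-195037621, plus strand): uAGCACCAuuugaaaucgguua
Of 1005 microRNA hairpins in the table, 6 lay within 1 kb of a KO-only region. The others were Mir92b (188 bp), Mir686 (286 bp), Mir5618 (301 bp) and Mir692-2 (538 bp). Hairpins near crossing or WT-only regions were not counted, so the count of 6 has no background beside it.

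Tfam, which encodes the main transcription factor of mitochondrial DNA, had a region 531 bp from its lower end with folds of 5.13 and 4.22. Its start site was 11517 bp away, so the region was not at the annotated start. Nxpe5 had a region over its lower end with folds of 4.37 and 4.16 and another 1953 bp inside it with 4.61 and 5.60. Exosc10, a nuclease of the RNA exosome, had 4.28 and 4.11, and H2-Eb2, an MHC class II beta chain gene, had 4.19 and 4.12 at 92 bp from its end. Kntc1, a kinetochore protein, had 4.29 and 3.83, and Slc32a1, the vesicular transporter for GABA, had 3.96 and 3.70. Of the regions in this group, those of Tfam and the inner one of Nxpe5 differed most between the KO libraries.

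The other members among the 20 strongest at gene ends were Gm6958, Cops7a (a COP9 signalosome subunit), Ccdc153, Prss21 (a testis serine protease), Gm9195, Clec4g (a C-type lectin), Gm11543, Tcf20 (a transcriptional coregulator), Ktn1 (kinectin), the olfactory receptor gene Olfr1358 and Catspere1 (a part of the sperm calcium channel). Olfr1358 had the widest gap between libraries, 5.42 against 3.45. Below these the peaks were weak: the median strength of the 106 gene-end regions was 9.40, and 56 were under 10.

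Over promoter windows, the 30 KO-only regions (2.22%) were as frequent as crossing regions (1.56% to 2.44% in the pairs). The start site itself was covered in 23. Promoter peaks were weak, with a median strength of 8.93 and a highest of 36.8 at S1pr5. Genes without a promoter window are not covered by this count. Fzd2 is one of them, and the KO-only region over its 5′ end had a strength of 55.2. For 25 of the 30 genes, no promoter window was called in all 4 libraries; the exceptions were Wnt5b, Rusc2, Car7, Gata2 and Ubtf. A further region called in all 4 lay within 1 kb of 5 of the 30.

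After S1pr5 came Aif1l with folds of 3.39 and 3.26, and Actn2, an alpha-actinin of the muscle sarcomere, with 3.59 and 3.24. Tekt1 had 3.33 and 3.38, Scn8a 3.28 and 3.23, and Fetub, a plasma fetuin made by the liver, 3.88 and 3.12. Arid3c, a DNA-binding protein, had 3.21 and 3.15, and Wnt5b 3.20 and 3.05. Prtg, an embryonic cell surface receptor, had 3.67 and 3.04, and Col19a1, a collagen, 3.16 and 3.62. Apart from S1pr5 the folds of these 10 lay between 3.04 and 3.88. At Col19a1 a WT peak lay 105 bp from the region, and at Scn8a the closest was 2700 bp away.

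Weaker promoter regions included Gata2, a factor of blood stem cells and mast cells (2.82 and 3.16), Hcn2, a pacemaker channel (2.82 and 2.86), Epha4, an ephrin receptor (3.16 and 2.83), and Kdm5b, a histone demethylase (2.79 and 2.29). Those at Ubtf, Klhl17, Tcte2, Tnfaip8l3 and Epha4 were the 5 within 1 kb of a region called in all 4.

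The promoter windows of these 30 genes were rich in CG. The median was 19.5 CG dinucleotides per 300 bases, with quartiles of 15.25 and 29, against 15 for 121 genes with a crossing region, 19 for 37 with a WT-only region, 22 for 9251 called in all 4 libraries and 13 for all 17492 genes in the table. At least 10 CG were present in 26 of 30 KO-only windows (86.7%, interval 69.3% to 96.2%). This was 61.2% (51.9% to 69.9%) of crossing, 78.4% (61.8% to 90.2%) of WT-only and 87.8% of all-4 windows, and 57.2% of all windows. The KO-only and crossing intervals overlapped narrowly, and the WT-only interval overlapped both. No test was run over these windows.

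**Figure D4:**
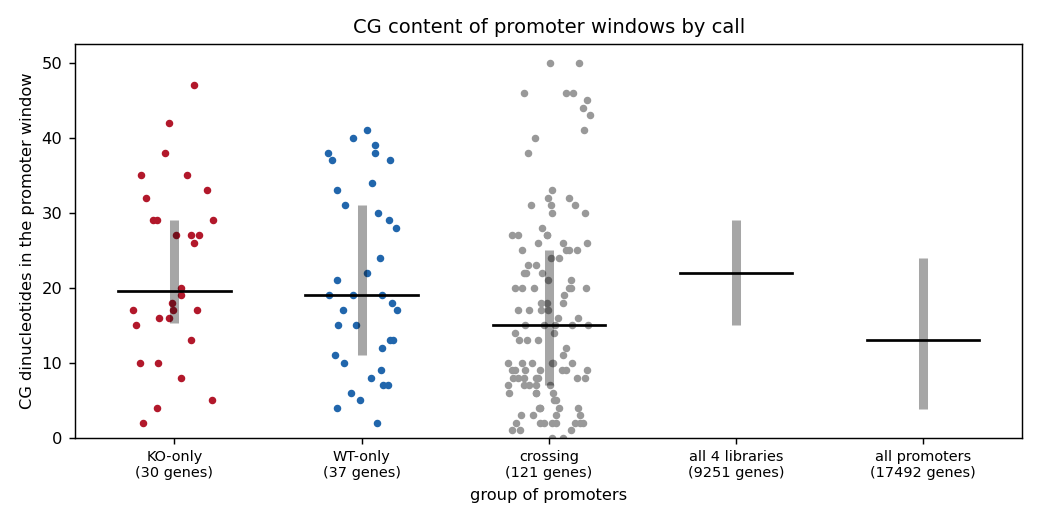
Number of CG dinucleotides in each 300-base promoter window (y axis) by how the window was called; points are genes, the black line is the median and the grey bar spans the quartiles, with no points drawn for the 2 large groups at right. The KO-only median of 19.5 lies next to the WT-only median of 19 and above the crossing median of 15.

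Motif letters were searched on both strands of the same windows. GGGCGG, the core letters bound by SP and KLF factors, were present in 21 of 30 KO-only windows (70.0%), against 78.4% of WT-only, 57.0% of crossing, 68.2% of all-4 and 46.3% of all windows. The PU.1 letters GAGGAAG were found in 6 (20.0%), against 13.5% of WT-only, 21.5% of crossing and 13.5% of all windows. CCAAT was found in 5 (16.7%, interval 5.64% to 34.7%), against 24.3%, 28.9% and 39.0% in the same order and 39.7% of all-4 windows. The ETS letters GGAAGT were found in 2 (6.67%, interval 0.818% to 22.1%), against 21.6%, 24.8% and 25.1%, and 31.1% of all-4 windows. TGACTCA of AP-1 was found in 2 (6.67%), against 8.11% of WT-only, 6.61% of crossing and 4.58% of all windows. In the same order, CACGTG of E-boxes was in 3 (10.0%), against 5.41%, 10.7% and 7.90%. TTCNNNGAA of STAT factors was in 2 (6.67%), against 0%, 5.79% and 7.83%. TATAAA, TTGCNNAA of C/EBP factors and the IRF motif were in none of the 30 windows, where a count of 0 has an exact upper bound of 11.6%. TATAAA was in 2.70% of WT-only, 14.05% of crossing, 6.19% of all-4 and 13.3% of all windows. The C/EBP letters were in 10.8%, 12.4%, 7.87% and 10.1% in the same order, and the IRF motif in 5.41%, 4.13%, 3.25% and 3.40%. The crossing shares of TATAAA and the C/EBP letters lay above 11.6%. Their intervals, 8.40% to 21.5% and 7.11% to 19.6%, reached below it. Some of these letters can overlap, GAGGAAG with GGAAGT for instance, and a match is a description of the sequence only.

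By gene family, the 993 assigned regions were spread widely and without a family that stood apart. They lay near 947 genes, and 1.4% of all regions assigned to a gene were KO-only, against 5.93% that were crossing in the 4 pairs pooled. Symbols were sorted into 45 families, of which 44 had a KO-only region and 35 had at least 5. The exact interval of the KO-only share included that background of 1.4% in each of the 45 families. In 3 families, C-type lectins (4 against 0 to 3 in the pairs), other CD antigens (12 against 8 to 11) and RNA-binding zinc fingers (1 against 0), the count of KO-only regions was above that of every crossing pair, and in 1 family it was below. Counts set against the pairs are raw and not adjusted for set size. The pairs held 729 to 1466 assigned regions, against 993 KO-only.

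Among regulators of transcription, 24 regions lay near other DNA-binding factors (1.48% of their regions), among them Nfatc2 (folds of 3.75 and 3.82), Atf5 (4.11 and 3.55), Smad5 (3.62 and 4.14) and Gli3 (3.67 and 3.47). Chromatin regulators had 14 (1.35%), led by Tet1, a 5-methylcytosine dioxygenase, with 4.02 and 4.70. The Fox, Sox, T-box and Gata group had 7 of 301 (2.33%, interval 0.940% to 4.73%), near T, Foxo3, Foxd2, Gata5, Foxo1, Foxn3 and Gata2. Homeobox genes had 7 of 498 (1.41%), against 21 WT-only regions, with the strongest near Barx2 (4.82 and 4.38) and Hoxb1 (4.33 and 5.10). C2H2 zinc finger genes had 17 (1.12%), and of 123 regions near histone genes none was KO-only, with an exact upper bound of 2.95%.

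In signalling, protein and lipid kinases had 29 KO-only regions (1.31%), with the strongest at Stk10 (3.99 and 3.97), and regulators of small GTPases had 21 (1.3%), with the strongest at Vav3 (4.07 and 3.96). G protein-coupled receptors and G proteins had 21 (1.40%), led by Lpar1, a receptor for lysophosphatidic acid (4.38 and 4.44). Genes of the Wnt, Notch, hedgehog and FGF pathways had 9 (1.81%), near Fzd2, Wnt3a, Maml2, Fzd4, Wnt5b, Wif1, Tcf7l1 and Tle3, and 3 of the 9 were at a gene end.

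Adhesion, matrix and structural families lay on both sides of the background. Cadherins and protocadherins had 1 of 205 (0.488%) and integrins 2 of 214 (0.935%). Collagens, laminins and other matrix genes had 12 of 525 (2.29%, interval 1.19% to 3.96%), near Crim1, Col15a1, Fbln5, Col16a1, Lamc3, Col4a1, Col5a1, Col14a1, Nid1, Col19a1 and Thbs3. The crossing pairs had between 7 and 15 regions near these genes, so the raw count of 12 is within their range, and 6 were WT-only. Cytoskeletal genes had 27 (1.62%), and the channel families had 15 and 7, the latter for potassium channels (1.86%).

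Immune families ran from 0.434% for immunoglobulin-like immune receptors to 2.29% for interferon-induced genes, all with intervals that included the background. Cytokines, chemokines and their receptors had 14 (1.23%), with the strongest near Il12a (3.79 and 3.60), inside Ifng (4.26 and 3.57), near Il10 (3.45 and 3.33) and inside Il18rap (3.40 and 5.89). Other CD antigens had 12 of 586 (2.05%), led by Ms4a4a (4.58 and 4.58), Cd46, Ms4a6d and Cd69. Interferon-induced genes had 5 of 218 (2.29%, interval 0.749% to 5.27%). Immunoglobulin-like immune receptors were the family under its crossing range, with 2 KO-only regions against 3 to 9, and had 14 WT-only regions.

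Housekeeping and metabolic families held the other large counts. The ubiquitin and proteasome system had 35 (1.56%), with the strongest in Kbtbd12 (4.63 and 5.40) and Rnf121, solute carriers 22 (1.32%), RNA-binding proteins 18 (1.49%), membrane trafficking 17 (1.28%), lipid enzymes 15 (1.31%) and glycosyltransferases 15 (1.5%). Numbered gene models had 57 (1.65%), and 441 assigned regions were near genes in no family.

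**Figure D5:**
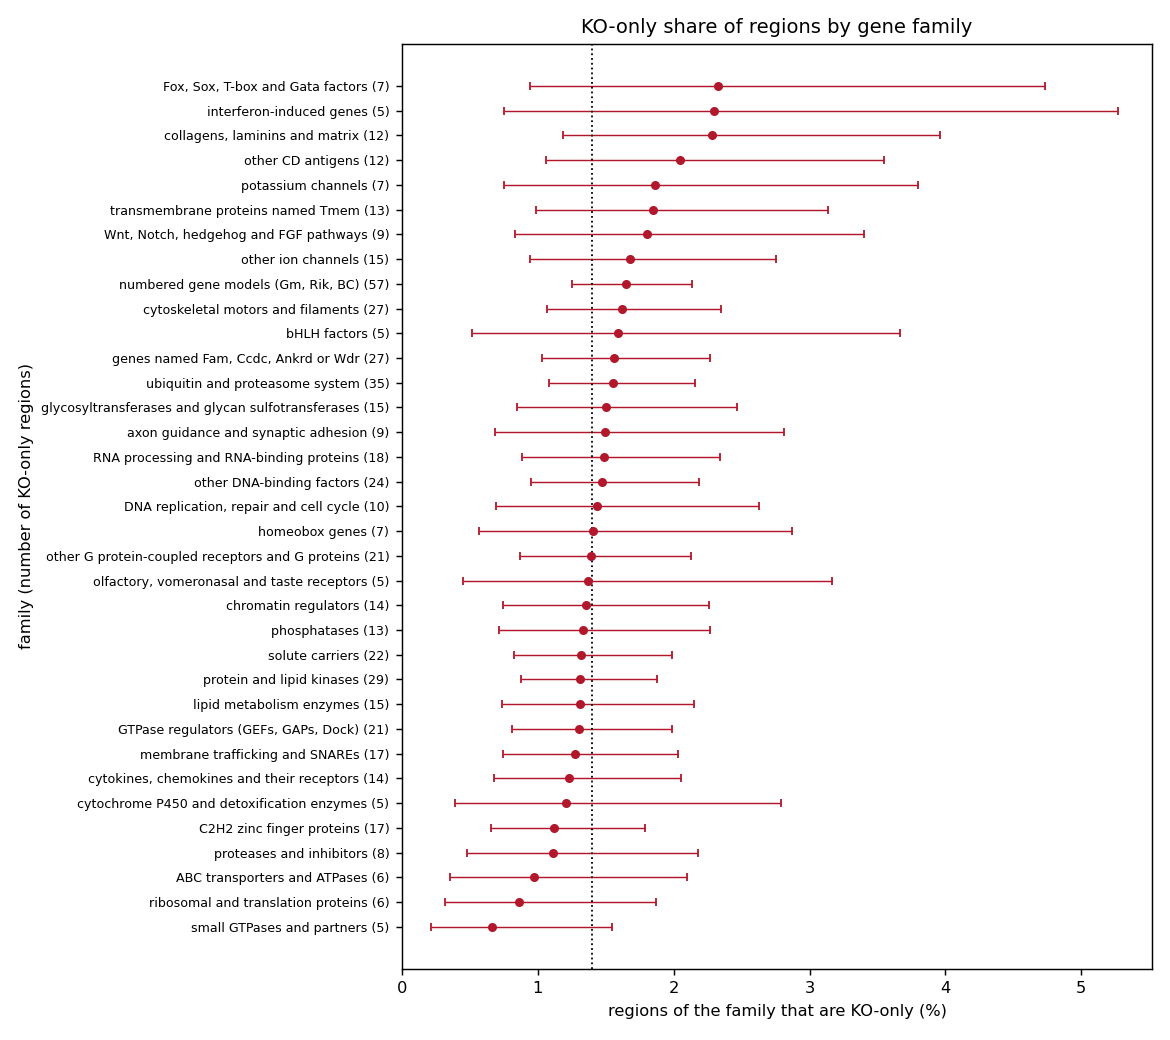
Share of each family's assigned regions that were KO-only (x axis, %) with exact 95% intervals, for the 35 families with at least 5 KO-only regions; the number of these is in parentheses and the dotted line is the 1.4% background. All 35 bars cross the line.

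Of 19 gene lists for macrophage activation, Polycomb complexes, development and other cell types, 14 had a KO-only region, and 33 of 406 genes and 34 regions were involved. Among all protein-coding genes, 947 of 21900 had a KO-only region. These gene counts are not adjusted for the number of regions per gene, so the shares of regions are given for single lists. The list of PRC1, the partner complex that ubiquitinates histone H2A and binds the PRC2 mark, had 5 of 108 regions (4.63%, interval 1.52% to 10.5%). It was the one list whose interval lay above the 1.4% background, without adjustment for the number of lists, and it had 3 WT-only and 7 crossing regions. The lists were chosen with earlier results of these data known, so this interval is a description and no test. The 5 regions were near or inside Kdm2b (3.89 and 4.48), Phc3 (3.61 and 3.67), Phc2 (3.46 and 3.51), Pcgf5 (3.14 and 3.25) and Bcor (3.06 and 2.95). They were between 5315 and 43600 bp from a gene end, and none was at a promoter. Of 20 PRC1 genes, 18 had a gene-end region that every library called, against 54.6% of all protein-coding genes.

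The PRC2 list had 1 of 79, inside Aebp2, an accessory subunit (3.01 and 2.85). Developmental regulators had 4 of 202 (1.98%, interval 0.542% to 4.99%). They lay near Wnt3a (5.24 and 4.47), Olig2, a factor of oligodendrocytes (3.79 and 3.78), Neurog2, a factor of neurogenesis (4.22 and 3.54), and T, the factor brachyury (3.64 and 4.08). All lay outside protein-coding genes and between 4311 and 20732 bp from the gene. Of 30 regions near Hox genes 1 was KO-only, 39579 bp from Hoxb1. The Wnt, Notch and BMP list had 6 of 297 (2.02%), at Fzd2 with 2, Fzd4, Crim1, Smad5 and Tcf7l1.

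Among activation genes, the alternative (M2) list had 4 of 174 (2.30%, interval 0.630% to 5.78%), near Il10, Cd200r1 (3.43 and 4.16), the macrophage lectin gene Clec10a (3.31 and 2.97) and Chil4. The inflammatory list had 3 of 200 (1.5%), near Il12a, Nfkbia (3.03 and 3.17) and Irf1 (2.82 and 2.93). The interferon list had 3 of 70 (4.29%, interval 0.893% to 12%), in Ifit2 (3.34 and 4.08), Ifit3 (2.85 and 3.03) and Oas1a (3.43 and 2.93). Tumour macrophage genes had 2 of 136, near Cd9 and Vegfa, and polyamine genes 1 of 83, near Sat1 (5.50 and 4.72). No KO-only region was assigned to a cell cycle inhibitor gene, of 34 regions there (exact upper bound 10.3%).

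Marker lists of other cells held few regions and gave few or no members. The lists for neutrophils, dendritic cells, fibroblasts and hepatocytes had none, of 36, 32, 17 and 19 regions, where the exact upper bounds are 9.74% to 19.5%. Each of the lists for B cells, T and NK cells, and mast cells, basophils and eosinophils had 1, at Pax5, Ncr1 and Gata2. Macrophage markers had 1 of 174 (0.575%, interval 0.0145% to 3.16%), inside Mertk, a receptor for apoptotic cells (3.21 and 3.58). Genes near KO-only regions were open as often as those near crossing regions: 605 of 947 (63.9%) had a gene-end region that every library called, against 64.6%, and 54.6% over all genes. Their median length was 41.4 kb, against 41.6 kb near crossing regions and 17.1 kb over all genes.

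Most KO-only regions had no other KO-only region within 100 kb. Another KO-only region lay within 100 kb of 287 (21.3%), and the crossing pairs ranged from 12.4% for the smallest pair of 959 regions to 24.9% for the largest of 2050. The pair of 1409 regions had 18.5%, and the 1867 WT-only regions had 20.3%. Within 10 kb, 45 (3.33%) had another, a higher share than in each pair (1.04% to 2.48%) and than the 2.46% of WT-only regions. There were 13 runs of at least 3 members with steps under 100 kb, and the longest held 4. The crossing pairs had 7 to 27 such runs and WT-only regions 18. Windows of 3 within 100 kb numbered 8, against 4 to 20 in the pairs and 12 for WT-only regions.

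The tightest window spanned 17250 bp on chromosome 14, with 3 regions near Gm8126 and Gm8127, whose folds were between 2.46 and 3.01. The next, 38707 bp on chromosome 17, lay in Afdn and Tcte2. A pair of overlapping windows on chromosome 4, of 56293 and 70892 bp, ran from Guca2b, a peptide hormone of the gut, to Hivep3. On chromosome 2, 66773 bp held a region each in Mapk8ip1, the clock repressor Cry2 and Slc35c1, with the highest fold at Cry2 (4.08 and 3.57). The tight window at Gm8126 and Gm8127 also held 2 of the 5 widest members, of 1141 and 1277 bp. The other wide ones were near Tcp10c (1388 bp), Csf2rb (1209 bp) and Gm52720 (1138 bp), and in these 5 the folds were at most 3.04. Gm8126, Gm8127, Mup9, Gm21190 and the olfactory receptor genes belong to families of similar sequence, where placement of reads is uncertain. The handling of reads with several matches was not stated.

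Of the 947 genes, 46 (4.86%) had 2 KO-only regions and none had 3, against 2.82% to 6.63% with 2 or more in the crossing pairs. For 4 of them, Fzd2, Pnoc, Mup9 and Gm8127, no assigned region was called in all 4 libraries. The strongest by their better region were Zfr, Fzd2, Rims2, Nxpe5, Galnt9, Col15a1, S1pr5, Stk10, Kif16b and Elovl6. At Rims2, an organiser of synaptic vesicle release, the regions lay less than 1 kb apart, with folds of 3.69 and 3.65 in the one and 4.63 and 5.04 in the other. At Galnt9, a glycosyltransferase, they had 4.77 and 4.28, and 3.72 and 3.58. In Col15a1, a basement membrane collagen, they had 3.50 and 3.29, and 4.36 and 4.05. In Stk10, a kinase of lymphocytes, they had 3.58 and 3.31, and 3.99 and 3.97. In and near the kinesin gene Kif16b they had 3.94 and 4.89, and 3.93 and 3.47. In Elovl6, an elongase of fatty acids, they had 3.01 and 3.18, and 3.94 and 4.39. Zfr had a weaker region outside the gene with 3.10 and 3.18.

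Other genes with 2 included Pnoc, Xrn1, Calml3, Guca2b, Ehbp1, Tcte2, Ano10, Tuba1c, Wdr20, Mgat4a, Ube2h, Mup9, Ina, Cxcl17, Umodl1, Hpcal1, Nckap1l, Rin3, Loxl2, Zfyve28, Pacsin2, Sh3glb1, Fam20c, Hivep3, Ptger3, Tmem123, AI467606, A530032D15Rik, Csf2rb, Map3k9, Gm8127, Pou2f1, Atg7, Gm21190 and Frmd8. Csf2rb encodes the shared beta chain of receptors for growth factors of myeloid cells, and its regions had folds of 2.98 and 3.31, and 2.97 and 3.04.

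By chromosome, the KO-only share ran from 1.15% of regions on chromosome 1 (74 of 6434, interval 0.904% to 1.44%) to 1.91% on chromosomes 6 (99 of 5193, interval 1.55% to 2.32%) and X (36 of 1889). The interval of chromosome 1 lay below, and that of chromosome 6 above, the 1.47% of all regions, without adjustment for the number of chromosomes. Chromosome Y had 3 of 100. The share of crossing regions ran from 5.47% to 8.15% on the chromosomes other than Y, with X the highest.

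The choice of members had a sharp edge. The weakest calls inside were near Slc6a7 (−log10 q of 1.32 in KO replicate 1), Speer4e (1.36) and Pla2g4b (1.36 in KO replicate 2). Just outside, the regions near Aff2, Tes and Snx25 had peaks in both KO libraries and were left out for a single WT replicate 2 peak with −log10 q of 1.34. In all, 3805 regions had peaks in both KO libraries and 1 WT library, and the median −log10 q of the lone WT peak was 3.25. At the limit of 50 kb for a gene, Prdm10 (49572 bp) and Elovl4 (49955 bp) were inside, and Rasa3 (50042 bp) was outside.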

How the data were processed

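ATAC-seq peak lists of 4 libraries, 2 WT and 2 KO, were analysed, grouped by their titles. The submitters' processing notes name fastp, Bowtie2, MACS2 and the mm10 build, without versions. The lists were deposited per library and not pooled. In the deposited lists the fold column is a ratio over the peak caller's background, the score is a whole number, and −log10 p and −log10 q are the authors' p-value and q-value columns; no q exceeded 0.0497. The files hold no counts, so depth is unknown, and folds were ranked only within a list. Read shifting for the transposase and read filters were not stated.

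Lists were merged with Python 3.11.15 (pandas 2.3.3, numpy 2.4.6, scipy 1.17.1) at 1 bp overlap, and figures were drawn with matplotlib 3.10.9. The code was tested on simulated peak lists. Genes were placed with RefSeq GRCm38.p6 (21900 protein-coding genes); 17492 genes had a promoter window. Members, gene lists, families and the rule for named genes were chosen with earlier results of these data known. Symbol patterns of some families were corrected after their counts had been seen. The rule named the 12 strongest members, genes with 2 members (10 in full), the 20 strongest at gene ends, list genes, up to 4 per family with at least 5, the 5 tightest windows of 3, the 5 widest, and the 10 strongest at promoters. Genes named outside the rule, the microRNAs among them, were chosen after their values were seen. A few genes that the rule names are not reported here. Shares were given exact Clopper-Pearson intervals at 95%, and no test was run. Alternatives were a −log10 q of at least 2, removal of the weakest 25% of each list, coverage of 50% of a region, other gene and cluster distances, and leaving out each library.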

Additional observations from a re-analysis of the deposited data

How the results depend on the processing

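No paired analysis was possible because the results come from no test. Of 93 recomputed values, 50 stayed within 1.5 times the reported count, or within the reported interval or spread, 42 moved and 1 reversed. A −log10 q of at least 2 moved none of the 12 results.

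Removing the weakest 25% of each list gave 7.75% of crossing regions at a gene end, 77.6% of KO-only regions assigned to a gene, 21 genes with 2 or more, 14.5% with another within 100 kb, a median width of 246 bp and 5.19% within 1 kb of a region called in all 4. Asking peaks to cover 50% of a region gave 2031 KO-only and 8927 crossing regions, 8.61% of crossing regions at a gene end, 76.8% assigned, 1449 genes, 105 genes with 2 or more, 28.7% with another within 100 kb, a median width of 305 bp and 5.61% within 1 kb of a region called in all 4.

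A gene window of 10 kb gave 34.8% assigned and 460 genes, one of 100 kb gave 87.0% assigned, and counting every gene with an end within 50 kb gave 2219. A gene-end window of 2 kb gave 12.8% of KO-only and 11.6% of crossing regions. A cluster distance of 50 kb gave 14.1%.

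Leaving out each library in turn raised the number of KO-only regions, since fewer lists then have to meet the rule: dropping WT replicate 1 or 2 gave 2906 or 3609, and dropping KO replicate 1 or 2 gave 7145 or 5377. It gave 70.0% to 75.3% assigned, 1937 to 3915 genes, 216 to 809 genes with 2 or more, 39.5% to 59.1% with another within 100 kb and median widths of 151 to 242 bp. The gene-end share of KO-only minus crossing regions ran from -0.50 without KO replicate 1, the 1 reversed value, to 1.33 without WT replicate 2. The cause of that reversal was not tested.

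The main limits are the unknown depth, the weak peaks behind most members and 2 libraries per genotype, whose independence is not stated. A region counts as KO-only when WT peaks fail a threshold, so it shows no measured difference in signal. Nearest genes are placed by distance alone, and no expression was measured in these libraries.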
